A study of Mus musculus with 2 samples.

Results

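The genes described here encode the proteins of the cytosolic ribosome, the particle that makes nearly all proteins of the cell. They were chosen by name: every gene probe whose name is Rpl or Rps with a number and at most 1 further letter, together with the stalk proteins Rplp0, Rplp1 and Rplp2, Rpsa and Fau, and without the S6 kinases. This gave 79 genes, 46 of the large and 33 of the small subunit, out of 27962 gene names on the array. They are measured by 131 of 41174 probes and 140 of 43379 gene spots.

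The data are 2 two-colour microarrays of mice on the C57BL/6N background. The first, called the BAT array, held RNA of brown adipose tissue (BAT, the fat that makes heat) from 1 mouse without PKGI (KO) in red (Cy5) and from its wild type littermate (WT) in green (Cy3). The second, called the adipocyte array, held RNA of brown adipocytes grown from preadipocytes, labelled as those of a KO mouse in green and of a WT littermate in red. The tissue was untreated, and age, the part of the gene deleted and how many cultures were used are not given in the sources used here. PKGI is the kinase that cGMP activates, encoded by Prkg1. With 1 array per comparison and no dye swap of the same RNA, there is no test between genotypes and no p-value is given. On each array dye and genotype cannot be told apart. The sex of the RNA differed between the channels of both arrays, so it cannot be told apart from them either (see Xist below). Every ratio below is KO over WT on the log2 scale after background correction and loess, unless another setting is named. Loess subtracts a fitted trend of ratio with brightness, but some trend was left at the brightest end. Among the brightest 1% of genes, those outside the ribosomal protein group still had a median ratio of 0.19 in BAT and -0.20 in adipocytes. A level is the normalized log2 intensity of 1 channel, and brightness is the mean of both levels.

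Of the cytosolic ribosome's parts, the small subunit reads the mRNA and the large subunit joins the amino acids. Its proteins are made in matched amounts, and their mRNAs belong to the most abundant of most cells. They share a feature called the 5′ TOP: transcription starts at a C followed by a run of pyrimidines, and through this run mTOR and the binding protein Larp1 control how well the mRNA is translated. Since that control acts on translation, an array of mRNA levels does not read it.

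The letters at the annotated transcription starts were searched for such a run, which most of them do not hold. RefSeq promoters (GRCm38.p6) matched 58 of the 79 genes with 69 annotated starts. A C followed by at least 4 bases that are each C or T, on the transcribed strand, began exactly at the annotated start in 14 of the 69, or 20.3%, against 2.51% of all 32851 promoters. It began within 5 bases of the start in 29, or 42.0%, against 18.3% of all promoters. A match describes letters and is not evidence of a site, and annotated starts can be off by some bases. The windows below run from 15 bases before the start to 15 bases from it, with the run in capitals. The first 4 belong to genes at least 2-fold higher in KO BAT and the last 3 to genes with small ratios or, for Rps27l, a ratio below 0, so the run is seen in both.
Rplp2, chr7:141447636-141447665, plus strand: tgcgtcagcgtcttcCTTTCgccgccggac
Fau, chr19:6057932-6057961, plus strand: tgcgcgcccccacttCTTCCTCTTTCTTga
Rps27, chr3:90213634-90213663, minus strand: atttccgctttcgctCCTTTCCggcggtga
Rps23, chr13:90923107-90923136, plus strand: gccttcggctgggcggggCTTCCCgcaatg
Rps21, chr2:180257364-180257393, plus strand: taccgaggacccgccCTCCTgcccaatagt
Rpl14, chr9:120571502-120571531, plus strand: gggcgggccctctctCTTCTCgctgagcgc
Rps27l, chr9:66946071-66946100, plus strand: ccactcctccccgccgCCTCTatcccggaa

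Several measurements of the whole arrays stand beside the results. Prkg1, the targeted gene, had a ratio of -0.84 in BAT and -1.03 in adipocytes, as the mean of 3 kept probes. Of these, 2 were well above background in every channel, with -1.29 and -1.22 in BAT and -0.94 and -2.31 in adipocytes, while the remaining probe, whose WT signal did not stand clear of background, had 0.01 and 0.17. Skeletal muscle markers were at least 2-fold lower in KO BAT for 21 of 22 genes (median ratio -2.57, summed raw signal 117680 in KO and 253923 in WT), the exception being Pvalb, which was not well above background in KO. In the cultured cells all 12 adipocyte markers measured were at least 2-fold lower in KO (median -3.48, summed signal 19938 in KO and 800051 in WT), and so were 10 of 12 macrophage markers (median -1.53, summed signal 69149 in KO and 591752 in WT). These sums are raw and not normalized between channels, so they cannot be read as ratios. Rplp0 had raw signals of 30629 in KO and 9419 in WT BAT at a ratio of 0.35. In adipocytes it had 44951 in KO and 80047 in WT at a ratio of 0.39. Xist, made from the inactive X of females, had a ratio of 4.41 in BAT and -3.36 in adipocytes. The Y-linked Eif2s3y was at least 84.7-fold lower in KO BAT, where it was not well above background, and had -0.12 on the adipocyte array. In BAT the brightest Xist probe had 14.66 in KO and 6.94 in WT, and Eif2s3y had 5.66 and 12.07. The KO channel of the BAT array thus had the pattern of a female and the WT channel that of a male. Sex, genotype and dye cannot be told apart on that array. The WT channel of the adipocyte array was bright for Xist (12.76 at its brightest probe) and for the Y-linked Eif2s3y (13.07) and Ddx3y (12.60). Its label gives 1 littermate, and the sources used here do not say whether mice were pooled. In the KO channel the same probes had 7.51 for Xist, 12.95 for Eif2s3y and 13.01 for Ddx3y, the pattern of a male. Sex thus differed between the channels of this array too, and cannot be told apart from genotype and dye. The part of these differences in the ribosomal protein ratios was not tested. Well above background were 74.1% of gene spots in the KO and 63.1% in the WT channel of the BAT array, and 68.1% in the KO and 70.1% in the WT channel of the adipocyte array.

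All 79 genes were accounted for. A gene had a value when at least 1 probe without an outlier flag stood well above background in 1 or both channels, which held for 77 genes in BAT and 76 in adipocytes. Rpl32 and Rpl9 had outlier flags on both arrays. Rpl3l was not well above background in either adipocyte channel. No probe of the group was saturated on either array. The pooled SD of repeated spots was 0.107 in BAT and 0.100 in adipocytes (245 probes each), which measures spotting and scanning only. Among ribosomal protein genes with several probes, the median SD between probes of a gene was 0.317 (37 genes) and 0.222 (38 genes), against 0.146 and 0.144 over all genes with several probes. These genes have many processed pseudogenes with near-identical letters, and cross-hybridisation of the probes was not tested.

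In KO BAT the ribosomal protein mRNAs stood above WT nearly as a group, relative to the other genes: their median ratio was 0.48, against 0.02 over all 20571 genes measured, and -0.36 against -0.83 when the array was centred on its spiked-in controls. That centring shifts every gene by 0.84, and changes below are given relative to the other genes. Of the 77 genes, 74 had a ratio above 0, where 52.6% of all genes had. At least 1.5-fold higher were 32 genes (4.24% of all genes), and 12 of them reached 2-fold (0.967% of all genes). At least 2-fold lower was 1 gene, Rpl3l (2.47% of all genes), which was also the only 1 at least 1.5-fold lower (7.3% of all genes). Ratios ran from -1.82 to 1.89 with an SD of 0.463 between genes. Without loess the median was 1.20, against 0.21 over all genes. The 12 genes past 2-fold became 5 with the scanner software's own ratio. They became 3 with a narrower loess span (0.05), a setting chosen after seeing the data. Shares of all genes in these settings are not given.

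In KO adipocytes the same genes were spread around WT. Their median ratio was 0.06, against -0.02 over all 19478 genes, and it was -0.40 without loess, where all genes had -0.23, and -0.16 with spiked-in controls, where all genes had -0.24. Above 0 were 43 of 76, where 48% of all genes were. At least 1.5-fold higher were 4 genes (7.64% of all genes) and at least 1.5-fold lower were also 4 (9.08%). None was at least 2-fold higher (2.15% of all genes), and 1, Rplp2, was at least 2-fold lower (3.81%). Ratios ran from -1.07 to 0.66 with an SD of 0.361. The shares past 1.5-fold, in either direction, lie below those of all genes. With the scanner software's ratio 10 genes were at least 1.5-fold higher and 1 as much lower, for which the shares of all genes are not given.

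**Figure D1:**
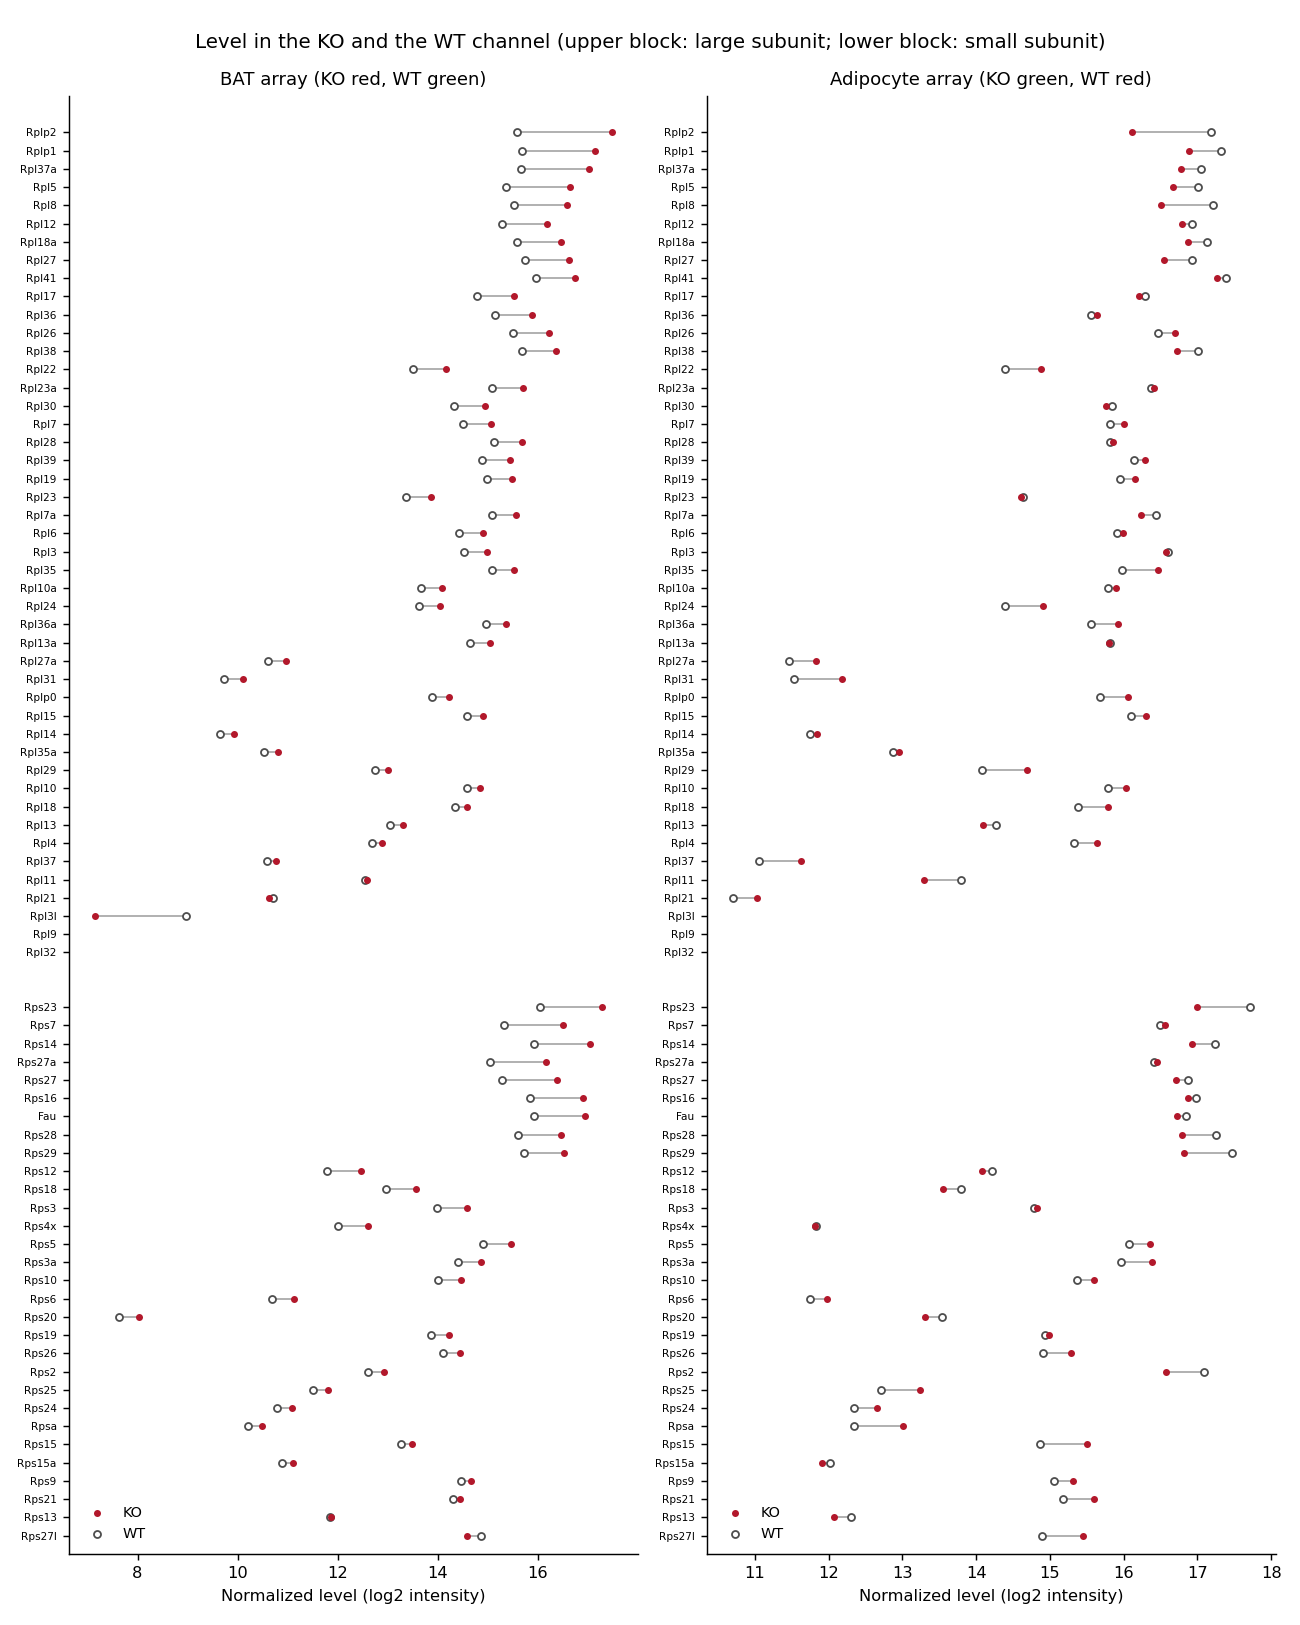
Level of ribosomal protein genes in the KO channel (filled) and the WT channel (open), in normalized log2 intensity (x axis), on the BAT array (left) and the adipocyte array (right). Genes run down the page by subunit and by their BAT ratio, a gene with no points was not measured, and not every gene is drawn. On the BAT array nearly all KO points lie right of WT except Rpl21, Rps27l and Rpl3l, though with spiked-in controls as the centre the median falls below 0. On the adipocyte array KO points lie on both sides of WT, with 43 of all 76 genes above it.

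Rplp2, of the stalk of the large subunit, had the ratio farthest from 0 on both arrays. The stalk is a flexible arm, with Rplp0 at its base and Rplp1 and Rplp2 as acidic arms, that draws translation factors to the ribosome. Rplp2 had a level of 17.48 in KO and 15.59 in WT BAT, a ratio of 1.89 (3.71-fold higher), but 16.12 in KO and 17.19 in WT adipocytes, a ratio of -1.07. Rplp1 had 17.13 in KO and 15.68 in WT BAT (1.45), and 16.88 in KO and 17.31 in WT adipocytes (-0.43). Both arms thus lay on opposite sides of WT on the 2 arrays. Rplp0 had 14.22 in KO and 13.87 in WT BAT, a ratio of 0.35, and 16.06 in KO and 15.68 in WT adipocytes, a ratio of 0.39. Its probe is spotted repeatedly, with an SD of 0.060 over 10 spots and 0.095 over 9. Without loess Rplp0 had 1.04 in BAT and -0.09 in adipocytes. With probes renamed through the RefSeq table it had 0.91 in BAT and -0.31 in adipocytes, and with spiked-in controls -0.50 in BAT.

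Other large subunit proteins followed. Rpl37a, a zinc-binding protein, had 17.03 in KO and 15.66 in WT BAT (1.37), and -0.27 in adipocytes. Rpl5, which with Rpl11 binds the 5S rRNA and can hold the p53 ligase Mdm2, had 16.64 in KO and 15.36 in WT BAT (1.28), and -0.34 in adipocytes. Its partner Rpl11 had 12.58 in KO and 12.55 in WT BAT (0.04), and 13.29 in KO and 13.80 in WT adipocytes (-0.51), but its 2 BAT probes lay at -0.82 and 0.90. The value of Rpl11 is a mean of probes of opposite sign, of which the brighter had 0.90. Whether the pair has like ratios in BAT thus depends on the probe read. Rpl8, which lies by the catalytic centre, had 16.58 in KO and 15.53 in WT BAT (1.05), and 16.51 in KO and 17.21 in WT adipocytes (-0.70). Rpl31 and Rpl29 were the large subunit genes at least 1.5-fold higher in KO adipocytes, with ratios of 0.65 and 0.61, and had 0.37 and 0.27 in BAT. Rpl37 and Rpl24 came next in adipocytes, at 0.57 and 0.52, with 0.19 and 0.42 in BAT. Rpl4 had 12.88 in KO and 12.69 in WT tissue (0.19), and 0.31 in adipocytes.

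Among small subunit proteins, 7 were at least 2-fold higher in KO BAT. Rps23, which lies in the decoding centre, had 17.28 in KO and 16.03 in WT BAT (1.24), and 16.99 in KO and 17.71 in WT adipocytes (-0.72). Rps7 had 16.50 in KO and 15.33 in WT BAT (1.17), and 0.07 in adipocytes. Rps14, next to the mRNA path, had 17.04 in KO and 15.91 in WT BAT (1.13), and -0.32 in adipocytes. These 3 had near-equal ratios in BAT. In adipocytes the ratio of Rps7 lay within the SD of a repeated spot and was -0.43 without loess. Rps27a and Fau are made fused to ubiquitin and to a ubiquitin-like protein. Rps27a had 16.17 in KO and 15.04 in WT BAT (1.12), and 0.05 in adipocytes. Fau had 16.95 in KO and 15.93 in WT BAT (1.02), and -0.12 in adipocytes. Rps27 (1.09 in BAT, -0.16 in adipocytes) and Rps16 (1.07, -0.11) complete the 7. Rps29, a small zinc-binding protein, had 0.81 in BAT and -0.65 in adipocytes. Rpsa, also known as the laminin receptor, and Rps15 were the small subunit genes at least 1.5-fold higher in KO adipocytes, at 0.66 and 0.64, and had 0.28 and 0.22 in BAT. Rps2 had 16.58 in KO and 17.09 in WT adipocytes (-0.51), while its 3 BAT probes ran from -0.80, where the KO channel was not well above background, to 1.16 around a mean of 0.32. Rps28 had 0.86 in BAT and -0.47 in adipocytes, and Rps25 had 0.31 in BAT and 0.54 in adipocytes. The smallest ratios in BAT besides Rps27l belonged to Rps13 (0.02), Rps21 (0.14) and Rps9 (0.19), which had -0.22, 0.42 and 0.26 in adipocytes. Rps6, the protein S6 kinase acts on, had 0.44 in BAT and 0.23 in adipocytes.

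The subunits were compared by their medians. On the BAT array the median ratio was 0.48 for 44 large and 0.55 for 33 small subunit genes, a difference of -0.08. On the adipocyte array it was 0.08 for 43 large and 0.05 for 33 small subunit genes, a difference of 0.03. In BAT the difference was -0.21 with the brightest probe of each gene and 0.13 with the brightest 2% of probes left out, so its sign depends on the probes used. At least 1.5-fold higher in BAT were 16 of 44 large and 16 of 33 small subunit genes, against 4.24% of all genes.

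Few genes went against the group in BAT. Rpl3l, a paralog of Rpl3 made in heart and skeletal muscle, had 7.15 in KO and 8.97 in WT BAT, a ratio of -1.82 (3.52-fold lower), well above background in both channels. Its ratio was -0.29 when spots with outlier flags stayed in the background fit, and between -2.66 and -1.51 in the other settings that measured it. Rpl3 itself had 14.98 in KO and 14.52 in WT BAT (0.46), and -0.03 in adipocytes. Rpl3l moved with the skeletal muscle markers, of which 21 of 22 were at least 2-fold lower (median -2.57). Their summed raw signal was 117680 in KO and 253923 in WT, and their part in the Rpl3l ratio was not tested. In a tissue array fewer cells of a type and less RNA per cell cannot be told apart. Rps27l, a paralog of Rps27 that p53 is known to induce in human cells, had 14.58 in KO and 14.86 in WT BAT (-0.28), and 15.44 in KO and 14.89 in WT adipocytes (0.56). Rps27l and Rps27 were thus of opposite sign on each array, but without loess both were above 0 in BAT (0.45 and 1.89), and with the scanner software's ratio both were above 0 in adipocytes (0.69 and 0.04). Rpl21 had -0.09 in BAT, or 0.41 without loess, and 0.33 in adipocytes, or -0.09 without loess. The 4 X-linked genes (Rpl10, Rpl36a, Rpl39 and Rps4x) had a median of 0.48 in BAT and 0.20 in adipocytes, beside the Xist ratios of opposite sign given above.

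The ratio of a ribosomal protein gene followed its brightness, in opposite directions on the 2 arrays. Across the 77 genes of the BAT array the ratio rose with brightness (Pearson r 0.68, Spearman rho 0.80), and across the 76 of the adipocyte array it fell (r -0.42, rho -0.55). These genes share 1 array, its 2 dyes and its loess curve, and the correlations are descriptions across genes. On the BAT array the 14 genes with a brightness of 16 or more had a median ratio of 1.04, and all 14 were at least 1.5-fold higher. The 36 genes between 14 and 16 had a median of 0.53, and the 27 under 14 had 0.29. On the adipocyte array the 32 genes at 16 or more had a median of -0.13 and 21 of them lay below 0, where 52% of all genes did. The 28 between 14 and 16 had 0.24, and the 16 under 14 had 0.17.

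**Figure D2:**
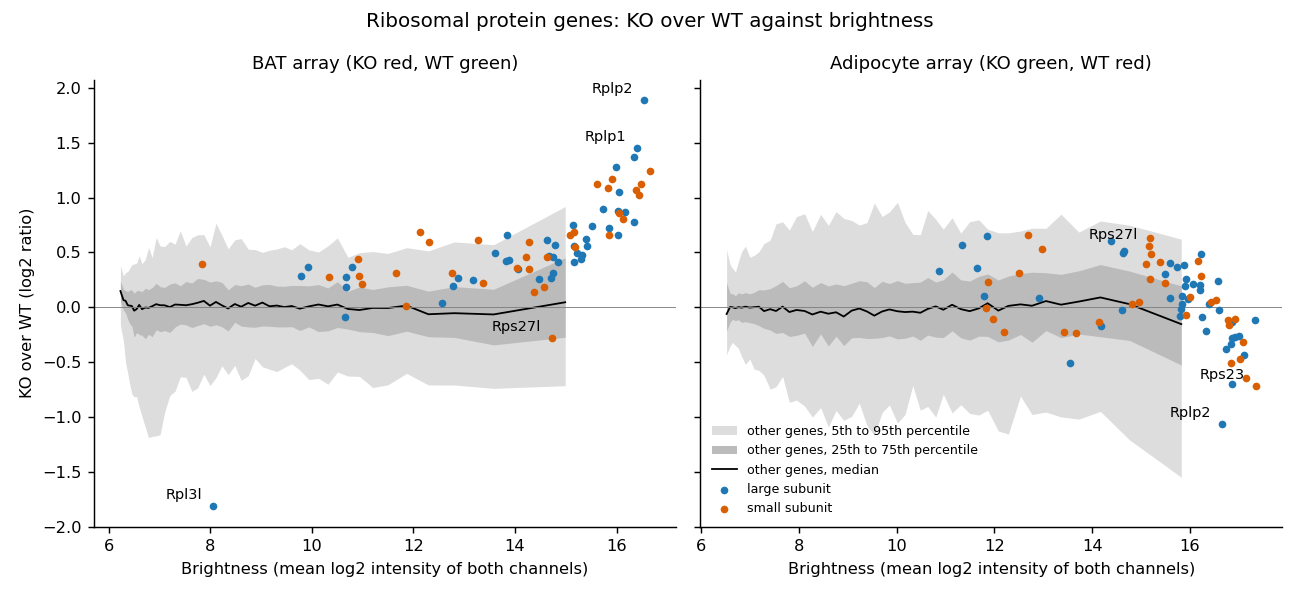
Ratio KO over WT (y axis, log2) against brightness (x axis, mean log2 intensity of both channels) for large (blue) and small (orange) subunit genes, with the median and percentile bands of all other genes in 50 bins of brightness. The brightest points bend upward on the BAT array, where KO is red, and downward on the adipocyte array, where KO is green.

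Other genes of like brightness were set beside them. Among the brightest 10% of genes on the BAT array, 64 ribosomal protein genes had a median ratio of 0.58 and the 1993 other genes -0.04. Of those other genes 7.18% were at least 1.5-fold higher, and 1.76% reached 2-fold. Among the brightest 1%, 28 ribosomal protein genes had 0.87 and 178 other genes 0.19. Among the brightest 10% on the adipocyte array, 63 ribosomal protein genes had 0.03 and 1885 others 0.02, and of the others 10.1% were at least 1.5-fold higher and 14% as much lower. Among its brightest 1%, 33 ribosomal protein genes had -0.12 and 162 others -0.20. The brightest 10% is a wide band, from 11.72 to 17.34 in BAT and from 13.26 to 17.35 in adipocytes. Within it the adipocyte difference, ribosomal protein genes minus others, was uneven. It was -0.30 from the 90th to the 95th percentile, 0.46 to the 98th, 0.30 to the 99th and 0.08 above. In BAT these cuts gave 0.32, 0.48, 0.49 and 0.68. Set against other genes in the same 10% band of brightness, the ribosomal protein genes differed by 0.53 in BAT and 0.06 in adipocytes, in the median. With the brightest 2% of probes left out, an alternative chosen after seeing the data, these became 0.16 and 0.37, over the 37 and 33 genes it leaves. In that setting the medians were 0.19 in BAT and 0.39 in adipocytes, and no gene in BAT was at least 2-fold higher.

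Probes that carry the name of the same gene were compared next. In BAT the brightest probe of a ribosomal protein gene had a higher ratio than the dimmest in 30 of 35 genes, and in adipocytes in 7 of 38. Where the 2 probes differed by at least 2 in brightness, the brighter was higher in 18 of 20 genes in BAT (median difference 0.69) and in 4 of 21 in adipocytes (median -0.30). Among other genes with such a gap it was higher in 1613 of 2584 in BAT and 1504 of 3255 in adipocytes. Rps18 had -0.18 at its dimmest and 1.21 at its brightest probe in BAT. Rps13 had -0.74 and 0.77 in BAT, and -0.40 and -0.04 in adipocytes. Rps3 had 0.24 and 0.95 in BAT, but 0.82 and -0.75 in adipocytes. Rpl7 and Rps25 had the next widest spreads between probes in adipocytes, from -0.23 to 0.80 and from 0.08 to 0.99. The direction within some of these genes depends on which probe is read.

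**Figure D3:**
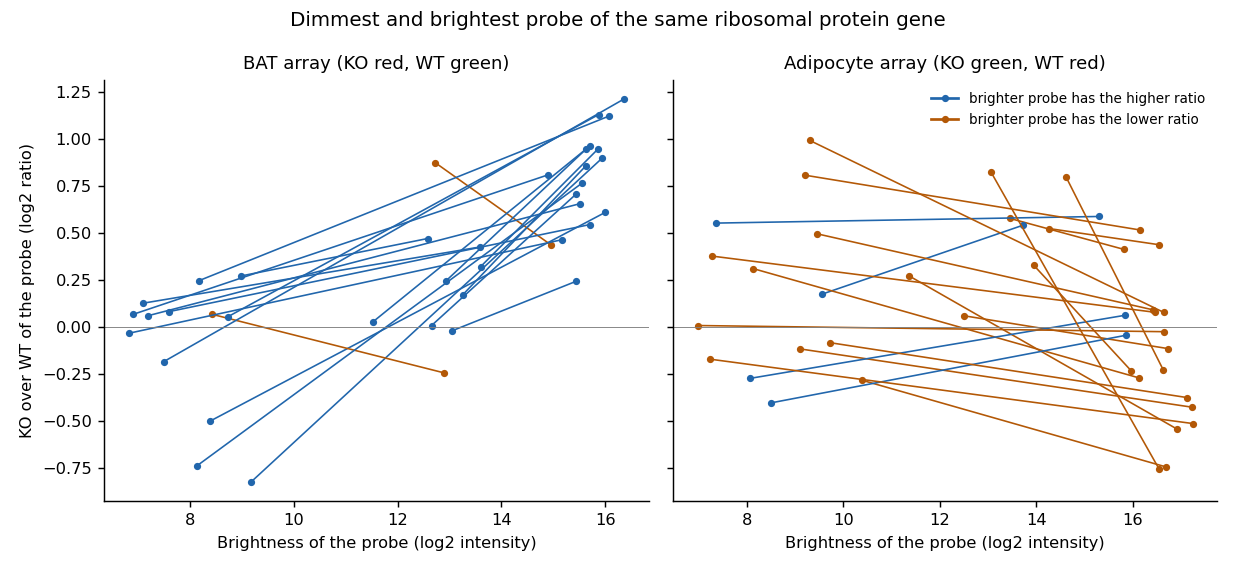
Ratio KO over WT (y axis, log2) against brightness (x axis, log2 intensity) of the dimmest and the brightest probe of each ribosomal protein gene, joined by a line, for genes whose probes differ by at least 2 in brightness. In BAT 18 of 20 lines slope upward, and in adipocytes 17 of 21 slope downward.

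The 2 arrays were then compared gene by gene. Over the 76 genes measured on both, the KO over WT ratios correlated at r -0.62 (rho -0.57), so red over green correlated at 0.62, and over all 18134 genes r was -0.01. The arrays hold different RNA but share probes and dyes. Higher in BAT and lower in adipocytes were 33 genes (28% of all genes), higher on both were 41 (25% of all genes), and lower on both were 0 (24.6% of all genes). At least 1.5-fold higher in BAT and as much lower in adipocytes were Rplp2, Rps23, Rpl8 and Rps29, a pattern of 0.634% of all genes. Rps27l and Rpl21 were lower in BAT and higher in adipocytes. All 14 genes with a brightness of 16 or more on both arrays were higher in BAT and lower in adipocytes, and so were 24 of 28 other genes of that brightness. Averaged over both arrays, in which each genotype carries each dye once though in different material, the ratios had a median of 0.33, against 0.01 for all genes, and 0.45 without loess. They ran from -0.24 to 0.62, with an SD of 0.16 where the single arrays had 0.38 and 0.36 over these genes. At least 1.5-fold higher in that mean were 2 genes, Rps7 (0.62) and Rps27a (0.59), near the 2.07% of all genes, and none was as much lower (4.96% of all genes).

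**Figure D4:**
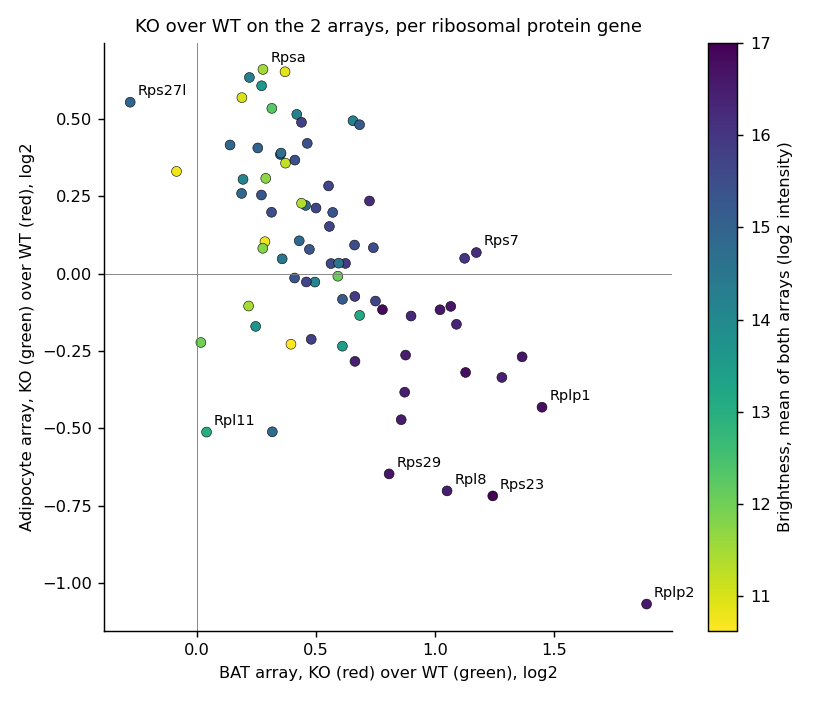
Ratio KO over WT (log2) on the adipocyte array (y axis) against that on the BAT array (x axis) for the 76 ribosomal protein genes measured on both, shaded by brightness. The darkest (brightest) genes lie at the lower right, above 0 in BAT and below 0 in adipocytes, with Rplp2 farthest out.

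Genes around the ribosome were read from lists chosen by function. Ribosome biogenesis and rRNA synthesis genes had a median of 0.22 in BAT, with 17 of 20 above 0 and none at least 1.5-fold changed, and 0.02 in adipocytes. At least 1.5-fold higher in KO adipocytes were 3 of 21 (7.64% of all genes), the nucleolar Npm1 (0.64), the export factor Ltv1 (0.67) and the RNA polymerase I factor Taf1b (0.74), and none was as much lower. Other translation genes with a 5′ TOP had a median of 0.42 in BAT, with 5 of 13 at least 1.5-fold higher (4.24% of all genes), and -0.01 in adipocytes. Gnb2l1 (Rack1), a scaffold on the small subunit, had 0.89 in BAT and -0.25 in adipocytes. Its 2 probes had 0.28 and 1.49 in BAT, and opposite signs in adipocytes (-0.75 and 0.26). Gas5, a host of small nucleolar RNAs, had 0.42 in BAT and 0.93 in adipocytes.

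Regulators of ribosomal protein synthesis had a median of -0.02 over 11 genes in BAT and -0.12 over 13 in adipocytes. Sp1, a transcription factor, was the only 1 of the 11 at least 1.5-fold higher in BAT (0.76, against 4.24% of all genes). Max (-0.67) and the translation repressor Eif4ebp2 (-0.66) were the 2 of 13 at least 1.5-fold lower in KO adipocytes (9.08% of all genes). Larp1 had -0.02 and -0.12, and Myc 0.24 and -0.29. Mitochondrial ribosomal proteins, which form the separate ribosome of that organelle, had a median of -0.16 over 74 genes in BAT, with 4 at least 1.5-fold lower (7.3% of all genes) and none as much higher (4.24%), and -0.06 over 75 in adipocytes. Their lowest genes were Mrpl46 in BAT (-1.06) and Mrps6 in adipocytes (-0.89). The 4 cytosolic paralogs outside the naming rule had medians of 0.00 and 0.22. The medians of these lists also move with the setting: without loess the biogenesis genes had 0.68 in BAT and -0.42 in adipocytes, and the mitochondrial ribosomal proteins 0.38 and -0.43.

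**Figure D5:**
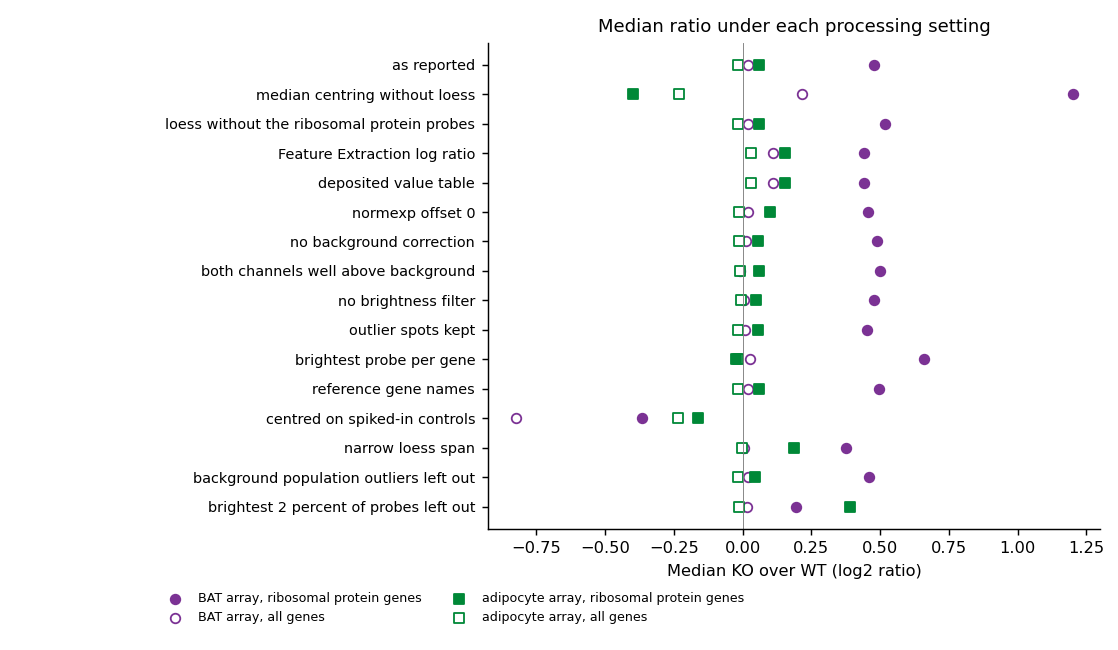
Median ratio KO over WT (x axis, log2) under each processing setting (y axis) of the ribosomal protein genes (filled) and of all genes (open), on the BAT array (circles) and the adipocyte array (squares). In BAT the filled circle lies right of the open one under every setting shown, while its position runs from -0.36 to 1.20. In adipocytes the filled square lies between -0.40 and 0.39 and changes sign with the setting.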

How the data were processed

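RNA was extracted with Trizol and amplified and labelled with an Agilent low input kit, per the labels' protocols. The authors deposited scanner output of Agilent Feature Extraction 9.5.1.1 (protocol GE2-v5_95_Feb07), per the file headers. The deposited intensity values are, per spot and dye, the mean signal and the median of the local background as the software measured them, per the file headers. The software also gives each spot a log10 ratio (red to green). A value table that the authors deposited holds a log10 ratio too, which lay within 0.017 (log2) of the extraction's ratio turned to KO over WT. It was empty for 7623 (BAT) and 6968 (adipocyte) gene spots, none of them of a ribosomal protein gene, with medians of 0.09 and 0.02 (log2). Ratios were computed with limma 3.58.1 in R 4.3.3: gene spots with an outlier flag (1215 in BAT, 203 in adipocytes) were removed before normexp background correction (offset 50) and loess (span 0.3, controls at weight 0). Probes that stood well above background in 1 or both channels were kept and averaged per gene. The steps were also run on simulated signals, with randomly picked probes changed in equal numbers up and down. A group at the brightest end moving in 1 direction was not simulated, so the trend left there was not tested.

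The ribosomal protein genes and all lists were chosen with earlier results of these data known. By rule, the text names the 4 highest and 4 lowest genes of each subunit per array, genes past 1.5-fold (at most the 12 furthest from 0 per array and direction), paralog pairs, the stalk, the ubiquitin fusions, Rpsa, Rps6, Rpl5, Rpl11, the 3 genes per array with the widest spread between probes, up to 4 genes of each other list, and Prkg1. Not every gene the rule picks is reported here, and Rps18, Larp1, Myc and the choice of Gas5 and Gnb2l1 came after their values were seen. The set of outlier flags was also settled after the files were seen. Further marker lists had medians, BAT then adipocytes, of -0.50 and -2.18 (brown adipocyte), -0.28 and 0.23 (smooth muscle and fibroblast), -0.35 and -0.17 (endothelial), -0.25 and 0.00 (erythroid), -0.08 and -0.20 (lymphocyte), and -0.35 and -0.28 (proliferating cells). Adipocyte markers had 0.17 and macrophage markers -0.11 in BAT, and skeletal muscle markers -0.17 in adipocytes. Of 15 alternative settings, 3 were chosen after seeing the data: the narrow loess span, leaving out background population outliers, and leaving out the brightest probes.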

Additional observations from a re-analysis of the deposited data

Results flagged for a closer look

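Rplp2, Rps23, Rpl8 and Rps29 were each at least 1.5-fold higher in KO on the BAT array and at least 1.5-fold lower in KO on the adipocyte array. Rplp2 had a log2 ratio of 1.89 in BAT and -1.07 in adipocytes. Rps23 had 1.24 in BAT and -0.72 in adipocytes. Rpl8 had 1.05 in BAT and -0.70 in adipocytes. Rps29 had 0.81 in BAT and -0.65 in adipocytes. With the scanner software's ratio the adipocyte values of Rps23, Rpl8 and Rps29 were -0.50, -0.46 and -0.40, and with the narrow loess span -0.38, -0.45 and -0.35, all short of 1.5-fold. With spiked-in controls Rps29 had -0.037 in BAT. Of all genes measured on both arrays, 0.634% had this pattern. With 1 array each, the difference between the arrays was not tested. The 2 arrays carry KO in opposite dyes, and Xist had ratios of opposite sign on them (4.41 in BAT, -3.36 in adipocytes). Tissue against culture, dye and sex thus cannot be told apart.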

How the results depend on the processing

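No paired analysis was possible because each comparison is 1 array, and leaving out a replicate was not possible either. The precision is limited by the number of arrays. All 15 alternatives gave values. Over genes and settings in BAT, 732 values moved by less than the SD of a repeated spot, 353 by more, and 17 turned sign among genes at least 1.5-fold different; in adipocytes these were 742, 345 and 0. A loess curve without the ribosomal protein probes moved no gene by more than that SD. The cause of the moves below was not tested. Some settings move the whole array: without loess the median over all genes was 0.21 in BAT and -0.23 in adipocytes. Centring on spiked-in controls lowers every gene by 0.84 in BAT and 0.22 in adipocytes. Shares of all genes past each fold are not given for these settings. The counts below thus do not tell a change of the group from one of the whole array.

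In BAT the median of 0.48 became 1.20 without loess, 0.66 with the brightest probe per gene, -0.36 with spiked-in controls and 0.19 without the brightest 2% of probes. The 12 genes at least 2-fold higher became 53 without loess, 5 with the extraction's ratio, 5 with the deposited table, 7 with outlier spots kept, 1 with spiked-in controls, 3 with a loess span of 0.05 and 0 without the brightest probes. The 32 genes at least 1.5-fold higher became 70 without loess, 2 with spiked-in controls, 14 with the narrow span and 1 without the brightest probes. The 1 gene at least 2-fold lower became 0 with outlier spots kept, 2 with spiked-in controls and 0 with background population outliers left out, and the 1 at least 1.5-fold lower became 0, 13 and 2 under these settings and 4 without the brightest probes. The large minus small difference became -0.21 with the brightest probe per gene and 0.13 without the brightest probes. The difference from other genes in the same 10% band of brightness became 0.40 with the narrow span and 0.16 without the brightest probes.

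Centring on spiked-in controls lowers every BAT gene by 0.84, so it fixes which ratios change sign, and 16 of the 17 turns are of this kind. Among the genes at least 1.5-fold higher in BAT that turned below 0 with spiked-in controls were Rpl17 (-0.095), Rpl22 (-0.19), Rpl23a (-0.22), Rpl26 (-0.12), Rpl30 (-0.23), Rpl36 (-0.10), Rpl38 (-0.18), Rpl41 (-0.065), Rps12 (-0.16), Rps18 (-0.23), Rps29 (-0.037), Rps3 (-0.25) and Rps4x (-0.25). Rps18 was also at -0.18 without the brightest probes.

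In adipocytes the median of 0.06 became -0.40 without loess, -0.16 with spiked-in controls, 0.19 with the narrow span and 0.39 without the brightest probes. The 1 gene at least 2-fold lower became 5 without loess, and 0 with the extraction's ratio, the deposited table, the narrow span or the brightest probes left out. The 4 at least 1.5-fold higher became 0 without loess, 10 with the extraction's ratio, 10 with the deposited table, 0 with spiked-in controls and 8 without the brightest probes. The 4 at least 1.5-fold lower became 24 without loess, 1 with the extraction's ratio, 1 with the deposited table, 9 with spiked-in controls, 1 with the narrow span, 2 with background population outliers left out and 0 without the brightest probes. The difference from other genes in the same 10% band of brightness became 0.18 with the narrow span and 0.37 without the brightest probes.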
